A study of Mus musculus with 31 samples.

Results

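Conventional type 1 dendritic cells (cDC1) and CD11c-negative macrophages sorted from infarcted hearts were compared across all genes, with 4 RNA-seq libraries of each among the 31 libraries of the series. The 8 libraries were chosen by their titles alone, as the myocardial infarction (MI) libraries named for cDC1 and those named CD11cneg, and no measured value entered the choice. The mice were Balb/c, 8 to 12 weeks old. MI hearts had the LAD coronary artery tied off for good, and steady state (SS) hearts had no infarct. After digestion with Liberase and DNase, cDC1, cDC2, CD11c-positive monocyte-derived cells (moDC) and CD11c-negative cells were sorted by flow cytometry. The groups used were therefore MI cDC1 and MI macrophages, with SS cDC1 and SS macrophages (4 libraries each) for comparison, and MI cDC2 (3 libraries) and MI moDC (4 libraries) for position. The labels call the replicates independent and do not say whether each is 1 animal or a pool, so p-values measure the spread between these libraries. No source used here gives the antibodies of the sort, the day after infarction or the sex.

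cDC1 are the dendritic cells that take up material from dead cells and present it on MHC class I to CD8 T cells. They depend on the cytokine FLT3L and on the transcription factors IRF8, BATF3 and ID2. Cardiac macrophages, some long resident and some newly derived from blood monocytes, depend on CSF1R and on MAF family factors. In the infarct they clear dead muscle, handle its lipid and iron, and secrete chemokines, complement and matrix factors. Both cell types take up debris and display MHC class II, so the comparison shows which parts of these tasks each population's RNA carried.

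Between 9148624 and 15671670 reads per library fell in genes in the 8 libraries, and the highest total stood apart from the next, 10595290 reads. The highest total was that of macrophage replicate 4, which had a read in 11818 genes. The other MI macrophage libraries had a read in 12897 to 13208 genes at lower depth. A level is given in CPM, the gene's count relative to the library total after TMM scaling, and mean ± SD are over 4 libraries in each group (n = 4 each). The first principal component of log2 CPM held 75.8% of the variance and separated the cDC1 libraries (scores 105.1 to 106.5) from the macrophage libraries (scores -114 to -101). The second held 7.33% and set macrophage replicate 4 (score 79.3) apart from the other macrophage libraries (scores -31.6 to -20.9). Counts are therefore also given without that library. Itgax, which encodes CD11c, was not absent from the CD11c-negative sort: it had 193, 171, 207 and 193 CPM in MI cDC1, against 61.9, 40.9, 23.9 and 37.0 CPM in MI macrophages. Every cDC1 library lay above every macrophage library. Itgax was 4.66-fold higher in MI cDC1 (log2 fold change 2.22 ± 0.23 SE, adjusted p = 1.84e-09), while MI cDC2 had 775 to 851 CPM and MI moDC 422 to 562 CPM. Transcript abundance does not measure the surface protein used for sorting.

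Markers of heart muscle, 10 genes, summed to 3.85 to 12.3 CPM in MI cDC1 and 55.4 to 138 CPM in MI macrophages. The 10 endothelial markers summed to 5.92 to 12.1 CPM in MI cDC1 and 42.6 to 75.03 CPM in MI macrophages. Of the 10 fibroblast markers Gsn carried nearly the whole sum, and the other 9 summed to 1.30 to 2.88 CPM in MI cDC1, with 3 at 0 reads, and 53.7 to 91.4 CPM in MI macrophages. All 3 sums were lower in cDC1, and their part in the results was not tested. The mast cell and basophil list summed to 288 to 336 CPM in MI cDC1, which was Kit, with 6 of its 8 genes at 0 reads, and 0 to 0.276 CPM in MI macrophages. Neutrophil markers, 9 found of 10, summed to 1.33 to 2.37 CPM in MI cDC1, with 7 at 0 reads, and 147 to 191 CPM in MI macrophages, where Csf3r led. T cell markers, 9 found of 10, summed to 0.103 to 1.02 CPM in MI cDC1 and 2.72 to 9.69 CPM in MI macrophages, and B cell markers, 8 genes, to 4.34 to 7.48 CPM in MI cDC1 and 38.6 to 75.4 CPM in MI macrophages. The 8 natural killer cell markers, led by Klrk1 and Klrb1c, summed to 59.0 to 96.8 CPM in MI cDC1 and 11.1 to 14.7 CPM in MI macrophages. The 8 plasmacytoid dendritic cell markers summed to 109.6 to 154 CPM in MI cDC1 and 437 to 498 CPM in MI macrophages, where Lair1 led with a mean of 273 CPM. Mean Lair1, Tcf4, Bst2 and Cox6a2 were higher in MI macrophages. Mean Siglech (24.1 against 4.86 CPM), Ccr9 (8.43 against 0.127 CPM) and Pacsin1 were higher in MI cDC1, and Klk1 had no read in either. Erythroid markers, 7 genes, were at 0 reads in both groups apart from 1 gene, which stayed under 1 CPM.

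Of 13039 genes tested, 5924 (45.4%) differed between MI cDC1 and MI macrophages at an adjusted p under 0.05 in edgeR's quasi-likelihood test. In MI cDC1, 2734 genes (21.0%) were higher and 3190 (24.5%) were lower. Among genes that were at least 4-fold apart the directions were unequal: 645 genes (4.95%) were higher and 1531 (11.7%) were lower in MI cDC1. In 5663 genes (43.4%) the 4 libraries of one group did not overlap the 4 of the other. Without macrophage replicate 4, 2518 genes were higher, 603 at 4-fold or more, and 3024 were lower, 1465 at 4-fold or more. Log2 CPM correlated across genes at 0.964 to 0.976 between cDC1 libraries, at 0.942 to 0.968 between macrophage libraries and at 0.782 to 0.815 between the cell types. Genes are not independent replicates, so these values are descriptive. In bulk RNA, fewer cells of a type and less RNA per cell cannot be told apart.

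**Figure D1:**
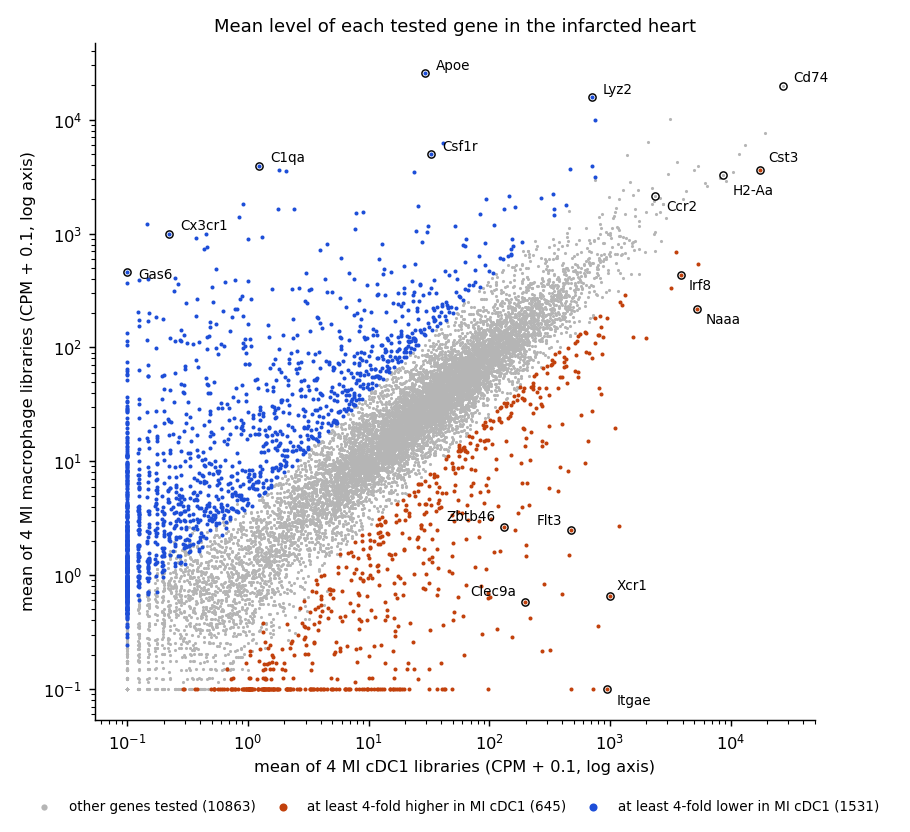
Mean level of each of 13039 tested genes in the 4 MI cDC1 libraries (horizontal) and the 4 MI macrophage libraries (vertical), in CPM plus 0.1 on log axes. The 1531 genes at least 4-fold lower in MI cDC1 form a broad cloud at the upper left that reaches Apoe, Lyz2, Csf1r and C1qa, and the 645 at least 4-fold higher genes form a narrower one at the lower right that reaches Xcr1 and Itgae.

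The largest rises in MI cDC1 were genes whose reads were absent or nearly absent in macrophages. Itgae, which encodes the integrin CD103 and lies at chr11:73090583-73147446 on the plus strand (GENCODE M21, GRCm38), had 1074, 888, 921 and 929 CPM in MI cDC1, against 0 CPM in each of the 4 MI macrophage libraries. All cDC1 libraries were high and no read was found in any macrophage library. Itgae was at least 14658-fold higher in MI cDC1 (adjusted p = 2.98e-11), where a group without reads is set at a floor of 3 reads over its libraries. Sept3, a septin, was at least 11085-fold higher (adjusted p = 4.13e-16), and Gcsam, an adaptor first described in germinal centre B cells, was at least 7304-fold higher (adjusted p = 3.23e-11). The axon guidance molecule gene Sema4f was at least 1497-fold higher, Wdr86 at least 766-fold higher, Gramd2 at least 653-fold higher, Zfp366, which encodes the dendritic cell factor DC-SCRIPT, at least 620.4-fold higher, and Ccser1 at least 485-fold higher (adjusted p = 8.35e-10, 1.11e-07, 1.14e-07, 1.28e-08 and 1.48e-06). Btla, an inhibitory receptor that binds HVEM, had 791, 813, 836 and 776 CPM in MI cDC1, against 0, 0.306, 0.722 and 0 CPM in MI macrophages. The gene was 3479.9-fold higher (log2 fold change 11.76 ± 0.91 SE, adjusted p = 3.73e-11). Its groups were far apart, with at most 1 CPM in any macrophage library. Kit, the receptor for stem cell factor, had 288 to 335 CPM in MI cDC1, against 0 to 0.276 CPM in MI macrophages. This was 2623-fold higher in MI cDC1 (log2 fold change 11.36 ± 0.87 SE, adjusted p = 2.73e-11). Cldn1, a tight junction protein gene, had 247 to 295 CPM in MI cDC1, against 0 to 0.459 CPM in MI macrophages. The gene was 2282-fold higher (log2 fold change 11.16 ± 0.58 SE, adjusted p = 3.03e-15). Without macrophage replicate 4, the library with 15671670 reads, the bound for Itgae was 9638.5-fold, and the other bounds in this group were likewise smaller by 1.52 times. The fold was 4621 for Kit without macrophage replicate 1 and 8530.4 for Btla without macrophage replicate 3. Without macrophage replicate 1 no macrophage read of Cldn1 was left, so its fitted fold of 23697 there depends on the prior count.

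Xcr1 and Clec9a define cDC1 in mouse and human: XCR1 is the receptor for the chemokine XCL1, and CLEC9A binds actin exposed on dead cells. Xcr1 (chr9:123852315-123862029, minus strand) had 1027, 909, 1005 and 1039.7 CPM in MI cDC1, against 0.184, 0.918, 1.13 and 0 CPM in MI macrophages. This was 1991-fold higher in MI cDC1 (log2 fold change 10.96 ± 0.52 SE, adjusted p = 5.04e-16). Clec9a (chr6:129408862-129424763, plus strand) had 195, 184, 199.9 and 207 CPM in MI cDC1, against 0.184, 0.102, 1.65 and 0 CPM in MI macrophages. The gene was 451-fold higher (log2 fold change 8.82 ± 0.59 SE, adjusted p = 6.41e-13). Neither gene overlapped between groups, and macrophage replicate 3 held most of the few macrophage reads of Clec9a. All 20 cDC1 identity genes were higher in MI cDC1, 19 of them by at least 4-fold, against 21.0% and 4.95% of all genes tested. The median log2 fold change of the list was 7.09, against -0.05 over all genes tested. The exception in size was Cadm1, an adhesion molecule, with 457 ± 56.3 CPM in MI cDC1 and 170.5 ± 55.6 CPM in MI macrophages. This was 2.68-fold higher in MI cDC1 (log2 fold change 1.42 ± 0.18 SE, adjusted p = 6.08e-08). Cd36, a scavenger receptor for oxidised lipid on both cell types, was 7.51-fold higher, with 584 to 762 CPM in MI cDC1, against 52.6 to 106 CPM in MI macrophages (adjusted p = 1.03e-10). Wdfy4, which is needed for cross-presentation of cell-associated antigen in mice, had 1992 ± 149 CPM in MI cDC1 and 119.8 ± 26.7 CPM in MI macrophages (16.6-fold higher, log2 fold change 4.05 ± 0.23 SE, adjusted p = 2.03e-15). Tlr3, a receptor for double-stranded RNA, had 399 ± 41.5 CPM in MI cDC1 and 21.2 ± 5.49 CPM in MI macrophages (18.8-fold higher, log2 fold change 4.24 ± 0.33 SE, adjusted p = 1.47e-11). Left-out libraries moved the fold to 2084 for Clec9a and 3119 for Xcr1 without macrophage replicate 3.

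The largest falls in MI cDC1 were genes abundant in macrophages. Gas6, the bridging ligand between dead cells and the receptors AXL and MERTK, lies at chr8:13465374-13494490 on the minus strand and had 0 CPM in each of the 4 MI cDC1 libraries, against 427, 411, 457 and 537 CPM in MI macrophages (at least 6295-fold lower, adjusted p = 1.53e-19). It had no read in any MI cDC1 library and at least 411 CPM in every MI macrophage library. Stab1, a scavenger receptor that recognises phosphatidylserine, had 0, 0, 0.186 and 0 CPM in MI cDC1, against 1071, 1166, 1288 and 1316 CPM in MI macrophages. It was 24657-fold lower by the ratio of summed reads (95% interval 6825 to 203605), adjusted p = 3.93e-16. Such intervals and floors cover counting error only, since PCR copies were not told apart. C4b, the complement component C4, was at least 5129-fold lower (adjusted p = 3.51e-13), though reads could be shared with its near-identical copy, and Tlr8 was at least 1550.2-fold lower (adjusted p = 8.23e-20). Cx3cr1, the fractalkine receptor and a marker of monocytes and macrophages, lies at chr9:119901616-120069879 on the minus strand and had 0, 0, 0.186 and 0.307 CPM in MI cDC1, against 978, 867, 1067 and 1083 CPM in MI macrophages. The gene was 7378-fold lower (log2 fold change -12.85 ± 0.39 SE, adjusted p = 8.97e-22). Siglec1, which encodes CD169, had 0 to 0.102 CPM in MI cDC1, against 301 to 502 CPM in MI macrophages (16222-fold lower by the ratio of summed reads (95% interval 2911 to 640758), adjusted p = 1.48e-15), and Folr2, a folate receptor that marks resident macrophages, had 0 to 0.0928 CPM in MI cDC1, against 153 to 245 CPM in MI macrophages (8339-fold lower by the ratio of summed reads (95% interval 1496 to 329425), adjusted p = 1.19e-16). Slc40a1, the iron exporter ferroportin, was at least 969-fold lower (adjusted p = 6.81e-12), Itga9 at least 1842-fold lower (adjusted p = 2.65e-14), Tmem37 at least 1415-fold lower (adjusted p = 1.90e-13) and the signalling adaptor Gab1 at least 889-fold lower (adjusted p = 1.79e-14). Slco2b1, an organic anion transporter, was 8341-fold lower by the ratio of summed reads (95% interval 2309 to 68877), adjusted p = 1.57e-15. With 1 library left out the fold was 13003 for Cx3cr1 without cDC1 replicate 4.

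Among genes at least 4-fold apart, 5 had the highest level in each population. In MI cDC1 these were Cst3 (17421 ± 1278 CPM in MI cDC1 and 3651 ± 145 CPM in MI macrophages), Ppt1 (5391 ± 338 CPM in MI cDC1 and 540.4 ± 34.9 CPM in MI macrophages), Naaa (5267 ± 281 CPM in MI cDC1 and 216 ± 18.8 CPM in MI macrophages), Irf8 and Gm2a (3559 ± 70.4 CPM in MI cDC1 and 682 ± 92.5 CPM in MI macrophages). Cst3 encodes the protease inhibitor cystatin C, and Ppt1, Naaa and Gm2a encode lysosomal proteins that act on lipids or lipidated proteins. Per kb of exon, Cst3 led MI cDC1 with 13760.3 CPM per kb, ahead of Ppt1 with 1467 and Naaa with 1416 CPM per kb. In MI macrophages they were Apoe (29.4 ± 7.66 CPM in MI cDC1 and 25472 ± 3802 CPM in MI macrophages), Lyz2 (713 ± 104 CPM in MI cDC1 and 15787 ± 1522 CPM in MI macrophages), Ctsb (747 ± 36.1 CPM in MI cDC1 and 10036 ± 265 CPM in MI macrophages), Selenop (listed as Sepp1, 41.1 ± 6.82 CPM in MI cDC1 and 6271 ± 484 CPM in MI macrophages) and Csf1r. Per kb of exon, Lyz2 with 11996 and Apoe with 11914 CPM per kb lay far above Ctsb with 1659 CPM per kb. Lyz2 encodes lysozyme M and Apoe the lipid carrier apolipoprotein E, and a near-identical gene, Lyz1, could share reads with Lyz2.

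Transcription factors of the dendritic cell lineage were higher in MI cDC1 in 9 of 12 cases, and those of macrophages were lower in 12 of 15, with no macrophage factor higher (21.0% higher and 24.5% lower over all genes). Irf8, the factor that specifies cDC1, had 4036, 4078, 4049 and 3450.4 CPM in MI cDC1, against 444, 397, 408 and 464 CPM in MI macrophages. This was 9.11-fold higher in MI cDC1 (log2 fold change 3.19 ± 0.14 SE, adjusted p = 8.61e-19). Batf3, its partner at shared enhancers, had 73.1, 62.6, 52.9 and 51.0 CPM in MI cDC1, against 9.003, 9.48, 6.50 and 10.5 CPM in MI macrophages. The gene was 6.73-fold higher (log2 fold change 2.75 ± 0.21 SE, adjusted p = 5.40e-13). Zbtb46, a repressor that marks conventional dendritic cells, had 153, 145, 123 and 111 CPM in MI cDC1, against 2.48, 2.85, 2.17 and 2.72 CPM in MI macrophages. This was 51.7-fold higher in MI cDC1 (log2 fold change 5.69 ± 0.30 SE, adjusted p = 1.10e-16). In all of these every cDC1 library lay above every macrophage library, although macrophages held Irf8 at 397 CPM or more. Id2, an inhibitor of E proteins, had 1497 ± 138 CPM in MI cDC1 and 441 ± 91.5 CPM in MI macrophages (3.40-fold higher, log2 fold change 1.76 ± 0.17 SE, adjusted p = 1.97e-10). Irf4, which drives cDC2, was the 1 member of the list that was lower, with 7.24 ± 2.48 CPM in MI cDC1 and 18.7 ± 5.88 CPM in MI macrophages (2.60-fold lower, log2 fold change -1.38 ± 0.28 SE, adjusted p = 1.23e-04). Maf, which holds macrophages in their differentiated state, was nearly absent from MI cDC1, with 0.103, 0.197, 0.0928 and 0.205 CPM in MI cDC1, against 121, 111, 140.5 and 83.7 CPM in MI macrophages. The gene was 711-fold lower (log2 fold change -9.47 ± 0.53 SE, adjusted p = 2.19e-15). Its groups did not overlap. Cebpb, a factor for monocyte and macrophage genes, had 51.8 ± 10.3 CPM in MI cDC1 and 1172 ± 116 CPM in MI macrophages (22.6-fold lower, log2 fold change -4.501 ± 0.27 SE, adjusted p = 3.18e-14). Cebpa had 42.5 ± 4.58 CPM in MI cDC1 and 188 ± 37.9 CPM in MI macrophages (4.42-fold lower, log2 fold change -2.14 ± 0.14 SE, adjusted p = 1.97e-14). Spic, which serves iron-recycling macrophages, was low in both, with 0 to 0.493 CPM in MI cDC1, against 4.87 to 11.04 CPM in MI macrophages. This was 48.9-fold lower in MI cDC1 (log2 fold change -5.61 ± 0.71 SE, adjusted p = 5.56e-08). The fold became 116 for Spic without cDC1 replicate 2.

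Among 12 receptors for the growth factors that sustain each lineage, 2 were higher and 7 lower in MI cDC1, against 21.0% and 24.5% of all genes. Flt3, the receptor for FLT3L, had 474, 442, 504 and 482 CPM in MI cDC1, against 3.49, 2.14, 2.68 and 1.26 CPM in MI macrophages. The gene was 203-fold higher (log2 fold change 7.66 ± 0.34 SE, adjusted p = 3.04e-17). Csf1r, the receptor for CSF1 and IL-34, had 40.6, 20.9, 40.8 and 29.0 CPM in MI cDC1, against 4935, 4234, 4752 and 5896 CPM in MI macrophages. This was 151-fold lower in MI cDC1 (log2 fold change -7.24 ± 0.22 SE, adjusted p = 1.41e-22). Both were separated in all libraries, in opposite directions, and Kit was the other receptor that was higher. The GM-CSF receptor genes did not pass the test: Csf2ra had 277 ± 22.0 CPM in MI cDC1 and 280.2 ± 41.9 CPM in MI macrophages (adjusted p = 0.948). Csf2rb had 122 ± 9.88 CPM in MI cDC1 and 110.1 ± 10.2 CPM in MI macrophages (adjusted p = 0.556). Both TGF-beta receptor genes fell: Tgfbr1 had 63.1 ± 7.403 CPM in MI cDC1 and 780.0 ± 97.8 CPM in MI macrophages (12.4-fold lower, log2 fold change -3.63 ± 0.18 SE, adjusted p = 3.53e-17). Tgfbr2 had 92.3 ± 8.99 CPM in MI cDC1 and 822 ± 89.0 CPM in MI macrophages (8.90-fold lower, log2 fold change -3.15 ± 0.16 SE, adjusted p = 3.00e-17).

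**Figure D2:**
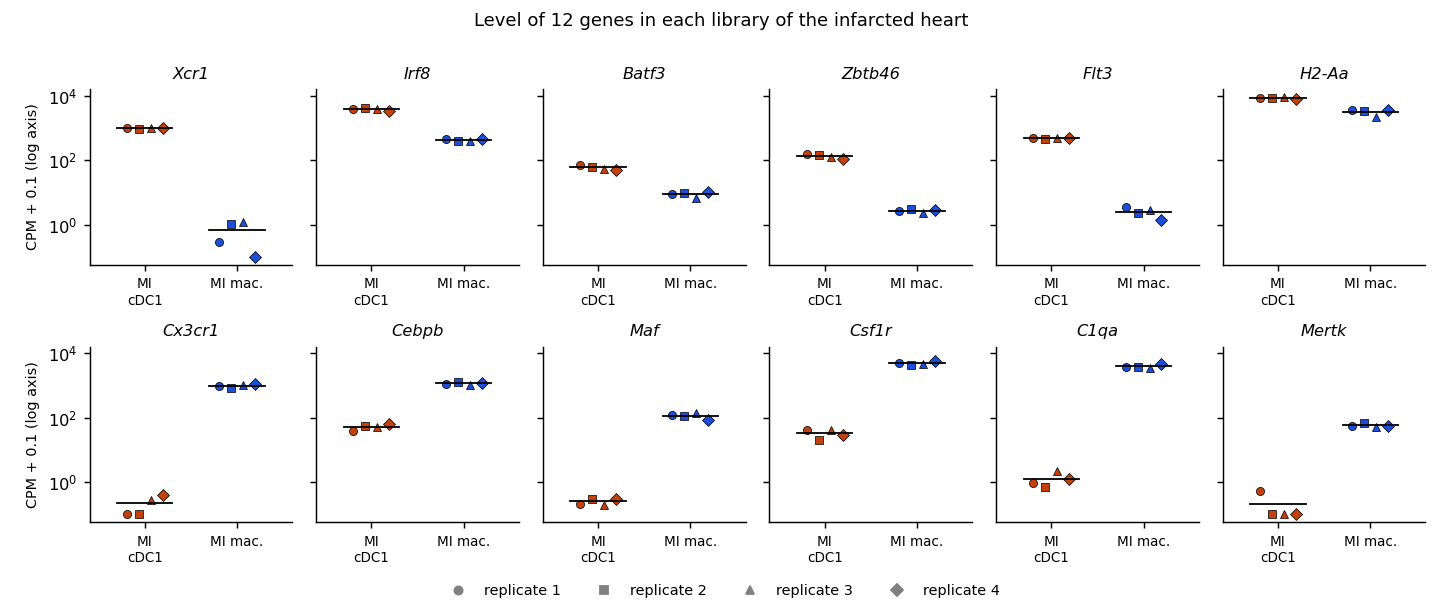
Level of 12 genes in each of the 4 MI cDC1 libraries (left, orange) and 4 MI macrophage libraries (right, blue), in CPM plus 0.1 on a log axis shared by all panels. Each marker shape is 1 replicate number and each line the mean, and in every panel the 4 libraries of one group lie apart from the 4 of the other.

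Promoter sequences are shown for a pair of genes that were high in cDC1 and a pair that were high in macrophages, since each pair moved together with the factors above. They are the 300 bases from 250 before to 50 after the start site in RefSeq's annotation (GRCm38.p6), read 5′ to 3′ on the gene's strand, for Xcr1 (chr9:123861980-123862279, minus strand), Zbtb46 (chr2:181424339-181424638, minus strand), C1qb (chr4:136886151-136886450, minus strand) and C1qc (chr4:136892865-136893164, minus strand). Capitals mark the matches to the 8 patterns spelled out after them, by their first base relative to the start site. Xcr1 held the E-box CACGTG at -227. Zbtb46 held the MAF recognition element core TGCTGA at -98 and the AP-1 site TGACTCA at -61. The bases before its annotated start end in a pyrimidine-rich run and CAG, the letters of a splice acceptor. Its window may therefore lie inside the gene and not at a promoter, and its positions count from the annotated start only. C1qb held TGCTGA at -131 and, at -191 and -190, overlapping NF-kappaB matches on the strand shown and the other strand. C1qc held the PU.1 site at -195 on the other strand, which reads ACTTCCTC here, and an NF-kappaB match on the other strand at -40.
Xcr1: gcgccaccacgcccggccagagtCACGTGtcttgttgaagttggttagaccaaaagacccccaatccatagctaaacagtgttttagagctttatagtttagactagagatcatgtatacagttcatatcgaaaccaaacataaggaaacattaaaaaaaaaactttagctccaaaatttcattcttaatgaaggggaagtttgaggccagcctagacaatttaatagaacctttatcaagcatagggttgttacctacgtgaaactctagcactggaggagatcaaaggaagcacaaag
Zbtb46: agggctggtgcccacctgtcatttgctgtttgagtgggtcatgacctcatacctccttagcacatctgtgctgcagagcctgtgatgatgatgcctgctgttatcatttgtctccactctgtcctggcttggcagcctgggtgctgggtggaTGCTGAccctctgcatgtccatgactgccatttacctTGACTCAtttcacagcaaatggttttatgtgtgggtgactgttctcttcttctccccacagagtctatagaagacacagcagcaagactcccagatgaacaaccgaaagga
C1qb: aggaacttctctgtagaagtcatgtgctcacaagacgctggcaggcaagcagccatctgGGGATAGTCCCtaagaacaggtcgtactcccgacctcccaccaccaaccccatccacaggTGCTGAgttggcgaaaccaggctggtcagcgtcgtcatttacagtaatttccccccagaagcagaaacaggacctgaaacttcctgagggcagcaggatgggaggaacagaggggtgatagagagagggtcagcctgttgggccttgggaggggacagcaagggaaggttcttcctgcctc
C1qc: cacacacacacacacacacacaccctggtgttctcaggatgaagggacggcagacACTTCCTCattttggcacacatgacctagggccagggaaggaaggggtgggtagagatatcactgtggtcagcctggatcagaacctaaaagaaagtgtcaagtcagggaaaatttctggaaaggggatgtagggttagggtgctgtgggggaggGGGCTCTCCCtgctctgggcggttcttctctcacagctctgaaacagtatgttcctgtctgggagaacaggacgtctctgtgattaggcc

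The patterns were counted on both strands in the 7942 tested genes with exactly 1 such promoter, of which 391 were at least 4-fold higher and 850 at least 4-fold lower in MI cDC1. The MAF recognition element core TGCTGA was found in 15.3% of the promoters of higher genes, 21.9% of those of lower genes and 15.6% of all. A C/EBP site, TTGCNNAA, was found in 9.46% of the promoters of higher genes, 12.7% of those of lower genes and 8.27% of all. The ETS-IRF composite, GGAA and GAAA with 2 bases between, was found in 4.09% of the promoters of higher genes, 3.06% of those of lower genes and 2.66% of all, and the interferon response core, GAAA and GAAA with 2 bases between, in 3.84% of the promoters of higher genes, 5.76% of those of lower genes and 3.40% of all. An AP-1 site, TGANTCA, was found in 6.14% of the promoters of higher genes, 6.71% of those of lower genes and 4.80% of all, and PU.1's GAGGAAGT in 4.60% of the promoters of higher genes, 3.65% of those of lower genes and 3.44% of all. The E-box CACGTG was found in 5.88% of the promoters of higher genes, 7.53% of those of lower genes and 10.1% of all, and the NF-kappaB pattern, GGGA and CC with 4 bases between, was in 27.6% of the promoters of higher genes, 26.5% of those of lower genes and 26.3% of all. These shares describe letters in a 300-base window, were not tested and partly overlap, since the interferon response core and the ETS-IRF composite can share bases.

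Genes that mark monocytes and macrophages were lower in MI cDC1 in 14 of 15 cases and those of resident cardiac macrophages in 19 of 20, against 24.5% of all genes, with median log2 fold changes of -6.68 and -9.01. Adgre1, which encodes F4/80, had 7.84 ± 2.56 CPM in MI cDC1 and 1522 ± 135 CPM in MI macrophages (194-fold lower, log2 fold change -7.601 ± 0.26 SE, adjusted p = 5.79e-21). Itgam, which encodes CD11b, had 12.7 ± 3.19 CPM in MI cDC1 and 805 ± 46.2 CPM in MI macrophages (63.2-fold lower, log2 fold change -5.98 ± 0.21 SE, adjusted p = 3.23e-21). Sirpa, the CD47 receptor that separates cDC2 and macrophages from cDC1, had 4.52, 0.296, 0.557 and 1.33 CPM in MI cDC1, against 1816, 1498, 1448 and 1794 CPM in MI macrophages. The gene was 988-fold lower (log2 fold change -9.95 ± 0.44 SE, adjusted p = 1.31e-16). Its groups did not overlap, and MI cDC1 held a few CPM at most. Cd14, the LPS co-receptor, remained detectable in MI cDC1, with 146 ± 32.5 CPM in MI cDC1 and 2134 ± 298 CPM in MI macrophages (14.6-fold lower, log2 fold change -3.87 ± 0.26 SE, adjusted p = 4.36e-13). Lgals3, which encodes galectin-3, was the marker that did not pass the test, with 347 ± 25.6 CPM in MI cDC1 and 432 ± 89.3 CPM in MI macrophages (adjusted p = 0.297), although it did when the MI libraries alone were fitted (adjusted p = 0.0202). Of the resident genes, Mrc1, the mannose receptor CD206, had 0.352 ± 0.572 CPM in MI cDC1 and 997 ± 115 CPM in MI macrophages (2617-fold lower, log2 fold change -11.35 ± 0.52 SE, adjusted p = 2.66e-16). F13a1, coagulation factor XIII, had 0.749 ± 0.809 CPM in MI cDC1 and 1389 ± 145 CPM in MI macrophages (1791-fold lower, log2 fold change -10.81 ± 0.42 SE, adjusted p = 3.44e-18). Cd163, the haemoglobin scavenger receptor, had 1.85 ± 0.576 CPM in MI cDC1 and 129 ± 34.2 CPM in MI macrophages (69.1-fold lower, log2 fold change -6.11 ± 0.31 SE, adjusted p = 2.06e-16). Lyve1 was low in MI macrophages too, with 0.247 ± 0.187 CPM in MI cDC1 and 19.6 ± 5.14 CPM in MI macrophages (75.5-fold lower, log2 fold change -6.24 ± 0.67 SE, adjusted p = 3.84e-09). Timd4, the phosphatidylserine receptor TIM-4 used to mark resident cardiac macrophages, went the other way, with 74.8, 57.1, 50.9 and 60.6 CPM in MI cDC1, against 9.92, 19.9, 10.3 and 11.7 CPM in MI macrophages. All 4 cDC1 libraries were above all 4 macrophage libraries (4.71-fold higher, log2 fold change 2.23 ± 0.33 SE, adjusted p = 1.87e-06). Leaving out 1 library gave folds of 2241 for Sirpa without cDC1 replicate 1 and 3330.4 for F13a1 and 12613 for Mrc1 without cDC1 replicate 3.

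Of 14 classical monocyte genes 2 were higher and 10 lower, against 21.0% and 24.5% of all genes. Among the higher ones was Plac8 (223 ± 38.9 CPM in MI cDC1 and 45.2 ± 24.1 CPM in MI macrophages, adjusted p = 0.0024). Ccr2, the receptor that draws monocytes from blood, had 2077, 2393, 2498 and 2499.9 CPM in MI cDC1, against 2361, 2168, 2193 and 1776 CPM in MI macrophages. The groups overlapped and the gene did not pass the test (log2 fold change 0.16 ± 0.13 SE, adjusted p = 0.35). Ly6c2 was scarce in both, with 0.514, 1.38, 1.95 and 0.205 CPM in MI cDC1, against 1.19, 18.9, 3.82 and 6.57 CPM in MI macrophages. This was 7.33-fold lower in MI cDC1 (log2 fold change -2.87 ± 0.79 SE, adjusted p = 0.00368). Its groups overlapped, and limma-voom gave an adjusted p of 0.0977. Fn1, fibronectin, had 1.748, 0, 2.32 and 0.717 CPM in MI cDC1, against 758, 1363, 845 and 759.8 CPM in MI macrophages (763-fold lower, log2 fold change -9.58 ± 1.03 SE, adjusted p = 2.36e-08), and replicate 2 was the highest macrophage library. Chil3 was at least 115-fold lower (adjusted p = 1.30e-07), and S100a4 had 3.65 ± 1.30 CPM in MI cDC1 and 28.3 ± 7.14 CPM in MI macrophages (adjusted p = 5.84e-12). Of 12 genes of cDC2 1 was higher and 5 lower, against the same 21.0% and 24.5%. The lectin genes Clec10a (0.203 ± 0.280 CPM in MI cDC1 and 64.3 ± 15.98 CPM in MI macrophages, 306-fold lower, log2 fold change -8.26 ± 0.42 SE, adjusted p = 2.47e-16) and Mgl2 (1.35 ± 1.01 CPM in MI cDC1 and 159 ± 17.7 CPM in MI macrophages, 117-fold lower, log2 fold change -6.88 ± 0.54 SE, adjusted p = 4.44e-11) were lower, and Cd209a, at 3.37 ± 1.12 CPM in MI cDC1 and 5.79 ± 3.36 CPM in MI macrophages, did not pass (adjusted p = 0.133) unless macrophage replicate 3 was left out (adjusted p = 0.0101). The fold was 837 for Clec10a and 178 for Mgl2 without cDC1 replicate 1 and 3.78 for Ly6c2 without macrophage replicate 2.

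Antigen presentation genes were higher in MI cDC1 for the most part, while the proteases that act on class II antigens were lower. In the MHC class II pathway 11 of 14 genes were higher and 2 lower, against 21.0% and 24.5% of all genes. Ciita, the transcriptional coactivator of class II genes, had 405, 309.8, 345 and 247 CPM in MI cDC1, against 82.5, 68.7, 53.3 and 73.3 CPM in MI macrophages. The gene was 4.70-fold higher (log2 fold change 2.23 ± 0.20 SE, adjusted p = 8.81e-11). H2-Aa had 8844, 8743, 9025 and 8219 CPM in MI cDC1, against 3624, 3380.1, 2222 and 3718 CPM in MI macrophages. This was 2.69-fold higher in MI cDC1 (log2 fold change 1.43 ± 0.16 SE, adjusted p = 4.27e-09). In both, the lowest cDC1 library exceeded the highest macrophage library. H2-Ab1 was 3.02-fold higher and H2-Eb1 3.12-fold higher (adjusted p = 4.04e-10 and 4.28e-10). Cd74, the invariant chain, was high in both, with 29672, 25109.9, 27280.3 and 26185 CPM in MI cDC1, against 21497, 17911, 14464 and 25587 CPM in MI macrophages, and its groups overlapped (1.36-fold higher, log2 fold change 0.45 ± 0.17 SE, adjusted p = 0.0293). It did not pass the threshold without cDC1 replicate 1, macrophage replicate 2 or macrophage replicate 3. Of the peptide-exchange factors, H2-DMa had 964 ± 57.4 CPM in MI cDC1 and 483 ± 91.9 CPM in MI macrophages (1.99-fold higher, log2 fold change 0.996 ± 0.13 SE, adjusted p = 1.58e-07), while H2-Oa, which restrains DM, had 97.98 ± 13.3 CPM in MI cDC1 and 0.597 ± 0.661 CPM in MI macrophages (178-fold higher, log2 fold change 7.48 ± 0.50 SE, adjusted p = 3.37e-13). H2-Ob had 217 ± 16.99 CPM in MI cDC1 and 10.1 ± 2.57 CPM in MI macrophages (21.3-fold higher, log2 fold change 4.42 ± 0.21 SE, adjusted p = 5.59e-18). The lower members were both proteases: Ctss, cathepsin S, had 747 ± 32.6 CPM in MI cDC1 and 2961 ± 194 CPM in MI macrophages (3.96-fold lower, log2 fold change -1.99 ± 0.13 SE, adjusted p = 2.43e-14). Lgmn, asparaginyl endopeptidase, had 93.6 ± 14.2 CPM in MI cDC1 and 2018 ± 12.3 CPM in MI macrophages (21.6-fold lower, log2 fold change -4.43 ± 0.18 SE, adjusted p = 3.02e-19). Reads of H2 genes are uncertain, since Balb/c alleles differ from the reference strain's. The fold was 371 for H2-Oa without macrophage replicate 2.

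In the MHC class I pathway 12 of 21 genes were higher and 2 lower, against 21.0% and 24.5% of all genes. Most of the higher ones cut, transport or load peptides. Tap1, the peptide transporter, had 777, 869, 817 and 735 CPM in MI cDC1, against 113, 138, 125 and 139 CPM in MI macrophages. The gene was 6.20-fold higher (log2 fold change 2.63 ± 0.11 SE, adjusted p = 6.27e-19). Psmb9, an immunoproteasome subunit, had 609.8, 659, 664 and 608 CPM in MI cDC1, against 83.5, 97.5, 72.0 and 109.9 CPM in MI macrophages. This was 6.997-fold higher in MI cDC1 (log2 fold change 2.81 ± 0.15 SE, adjusted p = 1.64e-16). Rab43, which mouse cDC1 use in cross-presentation, had 966, 840.5, 825 and 753 CPM in MI cDC1, against 163, 145, 133 and 158 CPM in MI macrophages. The gene was 5.64-fold higher (log2 fold change 2.49 ± 0.11 SE, adjusted p = 8.72e-19). None of these overlapped between groups. The class I heavy chains did not pass the test, with 1341 ± 92.5 CPM in MI cDC1 and 1478 ± 133 CPM in MI macrophages for H2-D1 (adjusted p = 0.353) and 487 ± 42.2 CPM in MI cDC1 and 509 ± 74.4 CPM in MI macrophages for H2-K1 (adjusted p = 0.736). B2m, their light chain, was lower, with 1549 ± 163 CPM in MI cDC1 and 2188 ± 193 CPM in MI macrophages (1.41-fold lower, log2 fold change -0.50 ± 0.13 SE, adjusted p = 0.0017). Cybb, the catalytic subunit of the NADPH oxidase NOX2 that makes superoxide in phagosomes, had 5.86, 8.68, 12.1 and 8.60 CPM in MI cDC1, against 1659.5, 1424, 1598 and 1525 CPM in MI macrophages. This was 176-fold lower in MI cDC1 (log2 fold change -7.46 ± 0.20 SE, adjusted p = 4.96e-24). Every cDC1 library held a small fraction of the Cybb level of any macrophage library.

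In the list of lysosome and cathepsin genes 17 of 20 were lower in MI cDC1, against 24.5% of all genes, with a median log2 fold change of -1.74. The list does not hold Ppt1, Naaa and Gm2a, which also encode lysosomal proteins and were at least 4-fold higher in MI cDC1. Its counts therefore do not stand for all lysosomal genes. Ctsd, cathepsin D, had 22.0, 19.4, 27.9 and 24.5 CPM in MI cDC1, against 3691, 3454, 3025 and 3673 CPM in MI macrophages. The gene was 147-fold lower (log2 fold change -7.20 ± 0.39 SE, adjusted p = 8.14e-15). Ctsl, cathepsin L, had 7.82, 4.54, 9.19 and 5.84 CPM in MI cDC1, against 439, 509, 435 and 419 CPM in MI macrophages. This was 65.6-fold lower in MI cDC1 (log2 fold change -6.04 ± 0.39 SE, adjusted p = 3.03e-13). Ctsb had 784, 729, 769 and 706 CPM in MI cDC1, against 10407, 9851, 9838 and 10048 CPM in MI macrophages. The gene was 13.4-fold lower (log2 fold change -3.75 ± 0.16 SE, adjusted p = 8.12e-19). In each, the macrophage libraries were at least several-fold above any cDC1 library. Lamp1, a lysosomal membrane protein, was 10.6-fold lower (adjusted p = 1.06e-18), Ctsa 12.6-fold lower (adjusted p = 1.48e-22) and Ctsc 7.96-fold lower (adjusted p = 1.49e-18). Psap, the precursor of the saposins, was the 1 gene of this list that was higher, with 13897, 13341, 14542 and 10877 CPM in MI cDC1, against 7010.3, 6072, 4003 and 6731 CPM in MI macrophages. This was 2.21-fold higher in MI cDC1 (log2 fold change 1.14 ± 0.17 SE, adjusted p = 8.90e-07).

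Pattern recognition receptors were split between the populations. Of 18 genes of Toll-like receptor signalling 5 were higher and 12 lower in MI cDC1, against 21.0% and 24.5% of all genes. Tlr11, a receptor for profilin of protozoa, had 497, 452, 465 and 402 CPM in MI cDC1, against 1.19, 1.02, 2.48 and 0.948 CPM in MI macrophages. The gene was 329.8-fold higher (log2 fold change 8.37 ± 0.42 SE, adjusted p = 9.33e-16). With it, its partner Tlr12 (39.4 ± 2.38 CPM in MI cDC1 and 3.89 ± 2.63 CPM in MI macrophages, adjusted p = 4.51e-07), Tlr3, the adaptor Myd88 (316 ± 71.2 CPM in MI cDC1 and 144 ± 16.7 CPM in MI macrophages, adjusted p = 9.04e-08) and Cd180 (54.0 ± 7.09 CPM in MI cDC1 and 23.7 ± 5.78 CPM in MI macrophages, adjusted p = 1.61e-05) were higher. Tlr7, a receptor for single-stranded RNA, had 0, 0, 0.836 and 0 CPM in MI cDC1, against 247, 207, 269 and 258 CPM in MI macrophages. This was 1051-fold lower in MI cDC1 (log2 fold change -10.04 ± 0.64 SE, adjusted p = 3.36e-13). Tlr4, the LPS receptor, had 29.7 ± 6.95 CPM in MI cDC1 and 209 ± 33.9 CPM in MI macrophages (7.02-fold lower, log2 fold change -2.81 ± 0.18 SE, adjusted p = 1.79e-14). Tlr2 had 64.0 ± 10.7 CPM in MI cDC1 and 889 ± 122 CPM in MI macrophages (13.9-fold lower, log2 fold change -3.80 ± 0.17 SE, adjusted p = 2.05e-18). Tlr1 had 11.5 ± 1.748 CPM in MI cDC1 and 129 ± 5.71 CPM in MI macrophages (11.2-fold lower, log2 fold change -3.48 ± 0.16 SE, adjusted p = 5.11e-18). For each receptor named here the libraries of the populations did not overlap. Without cDC1 replicate 3 no MI cDC1 read of Tlr7 was left, so its fitted fold of 21185 there depends on the prior count.

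Of 21 tested C-type lectins and scavenger receptors 4 were higher and 15 lower, against 21.0% and 24.5% of all genes. The median log2 fold change of the list was -6.11. Besides Clec9a and Cd36, the higher ones were Ly75, the uptake receptor DEC-205 (97.6 ± 16.5 CPM in MI cDC1 and 0.536 ± 0.631 CPM in MI macrophages, 193-fold higher, log2 fold change 7.596 ± 0.81 SE, adjusted p = 1.23e-08), and Cd207, langerin (97.0 ± 19.3 CPM in MI cDC1 and 15.3 ± 8.28 CPM in MI macrophages, adjusted p = 1.63e-06). Msr1, the class A scavenger receptor, had 0.149 ± 0.131 CPM in MI cDC1 and 406 ± 78.0 CPM in MI macrophages (2533-fold lower, log2 fold change -11.31 ± 0.41 SE, adjusted p = 7.65e-20), and Clec4a1, Clec4a2 and Clec4a3 were 396-fold lower, 79.2-fold lower and 559-fold lower. Reads of these related genes could be split or shared. Fc receptor genes were lower in 7 of 10 cases and higher in 1, against 24.5% and 21.0% of all genes. The higher one was Fcer1a of the IgE receptor, at 0.421 CPM on average in MI cDC1 and with no read in MI macrophages (adjusted p = 0.0201). Fcer1a had no read in cDC1 replicate 2 either, and its call was lost with the replicate block (adjusted p = 0.0561) and in DESeq2 (adjusted p = 0.112). Fcgr1, the high-affinity IgG receptor, had 1.03, 2.56, 2.88 and 6.04 CPM in MI cDC1, against 296, 332, 317 and 343 CPM in MI macrophages. The gene was 103-fold lower (log2 fold change -6.68 ± 0.37 SE, adjusted p = 6.64e-15). Fcgr4 had 3.72 ± 0.979 CPM in MI cDC1 and 182 ± 12.3 CPM in MI macrophages (48.8-fold lower, log2 fold change -5.61 ± 0.29 SE, adjusted p = 1.31e-16). Fcrls had 0.358 ± 0.460 CPM in MI cDC1 and 756 ± 149 CPM in MI macrophages (1982-fold lower, log2 fold change -10.95 ± 0.53 SE, adjusted p = 8.94e-16), while the inhibitory receptor Fcgr2b kept a level of 188 ± 20.7 CPM in MI cDC1, against 845 ± 46.7 CPM in MI macrophages. This was 4.501-fold lower in MI cDC1 (log2 fold change -2.17 ± 0.11 SE, adjusted p = 3.22e-17). With 1 library left out the fold was 5155 for Fcrls without cDC1 replicate 3 and 333 for Ly75 without macrophage replicate 2.

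Complement genes were lower in MI cDC1 in 17 of 19 cases, against 24.5% of all genes, with a median log2 fold change of -8.86. The 1 that was higher was Itgax, a subunit of complement receptor 4. The C1q genes lie side by side on chromosome 4 and encode the recognition molecule of the classical pathway. C1qa (chr4:136895917-136898803) had 0.823, 0.592, 2.04 and 1.13 CPM in MI cDC1, against 3755, 3717, 3572 and 4719.7 CPM in MI macrophages. The gene was 3366-fold lower (log2 fold change -11.72 ± 0.51 SE, adjusted p = 1.10e-16). C1qb (chr4:136880129-136886187) had 3.81, 0.986, 1.76 and 1.33 CPM in MI cDC1, against 3561, 3149, 3305 and 4086 CPM in MI macrophages. This was 1787-fold lower in MI cDC1 (log2 fold change -10.80 ± 0.50 SE, adjusted p = 4.41e-16). C1qc (chr4:136889804-136893065) had 3.09, 0.690, 1.95 and 1.13 CPM in MI cDC1, against 3534, 3158, 3222 and 4503 CPM in MI macrophages. The gene was 2094-fold lower (log2 fold change -11.03 ± 0.48 SE, adjusted p = 1.31e-16). All 3 had at most a few CPM in any cDC1 library and at least 3149 CPM in every macrophage library, with replicate 4 the highest for C1qa. C3, the central component, had 0.214 ± 0.306 CPM in MI cDC1 and 108 ± 17.3 CPM in MI macrophages (464-fold lower, log2 fold change -8.86 ± 0.87 SE, adjusted p = 3.48e-09). C3ar1, the receptor for its fragment C3a, had 2.30 ± 1.49 CPM in MI cDC1 and 1642 ± 166 CPM in MI macrophages (705-fold lower, log2 fold change -9.46 ± 0.39 SE, adjusted p = 1.72e-17). Genes of efferocytosis, the uptake of dead cells, were lower in 10 of 18 cases and higher in 4, against 24.5% and 21.0% of all genes. The share that was higher was thus near that of all genes. Mertk had 0.411, 0, 0 and 0 CPM in MI cDC1, against 55.2, 66.9, 52.8 and 54.4 CPM in MI macrophages (517-fold lower, log2 fold change -9.01 ± 0.78 SE, adjusted p = 9.57e-11), and the 1 cDC1 library with reads was replicate 1. Its relative Axl had 46.6, 25.4, 27.3 and 21.2 CPM in MI cDC1, against 1088, 930.2, 944 and 1175 CPM in MI macrophages. This was 34.3-fold lower in MI cDC1 (log2 fold change -5.10 ± 0.26 SE, adjusted p = 8.05e-16). The higher genes were Timd4, Havcr2, which encodes the phosphatidylserine receptor TIM-3 (159.7 ± 20.02 CPM in MI cDC1 and 42.9 ± 3.09 CPM in MI macrophages, adjusted p = 6.80e-09), Anxa1 (768 ± 75.6 CPM in MI cDC1 and 292 ± 22.4 CPM in MI macrophages, adjusted p = 2.56e-09) and Ucp2 (2763 ± 259.6 CPM in MI cDC1 and 1817 ± 133 CPM in MI macrophages, adjusted p = 6.19e-06). The fold became 1371 for C3 without cDC1 replicate 3. Without cDC1 replicate 1 no MI cDC1 read of Mertk was left, so its fitted fold of 4967 there depends on the prior count.

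Chemokine genes were lower in MI cDC1 in 17 of 19 cases, against 24.5% of all genes, with a median log2 fold change of -4.65. Ccl2, the ligand of CCR2, had 19.6, 21.0, 23.4 and 20.5 CPM in MI cDC1, against 115, 175, 158 and 190.5 CPM in MI macrophages. The gene was 7.55-fold lower (log2 fold change -2.92 ± 0.25 SE, adjusted p = 2.11e-11). Ccl9 had 7.71, 5.42, 5.66 and 4.51 CPM in MI cDC1, against 542, 854, 569 and 498 CPM in MI macrophages. This was 106-fold lower in MI cDC1 (log2 fold change -6.72 ± 0.29 SE, adjusted p = 1.70e-17). Ccl3, a ligand of CCR1, had 4.83, 10.9, 6.31 and 9.73 CPM in MI cDC1, against 163, 139, 243 and 254 CPM in MI macrophages. The gene was 25.1-fold lower (log2 fold change -4.65 ± 0.28 SE, adjusted p = 1.04e-14). None of these overlapped between groups. The neutrophil attractants Cxcl1 (0 to 0.296 CPM in MI cDC1, against 88.7 to 110.0 CPM in MI macrophages) and Cxcl2 (2.53 ± 1.18 CPM in MI cDC1 and 332 ± 29.4 CPM in MI macrophages) were 1342-fold lower by the ratio of summed reads (95% interval 459 to 6510.5) and 132-fold lower. Ccl4 was 3.08-fold lower (adjusted p = 1.31e-06), Ccl12 1599-fold lower (adjusted p = 1.35e-13) and Cxcl10 4.18-fold lower (adjusted p = 3.85e-06). Cxcl9, which attracts CXCR3-bearing T cells, was the 1 gene of this list that was higher, with 38.6, 14.1, 21.2 and 28.9 CPM in MI cDC1, against 6.89, 6.32, 7.01 and 1.26 CPM in MI macrophages (4.84-fold higher, log2 fold change 2.28 ± 0.52 SE, adjusted p = 6.93e-04), and Ccl5 did not pass the test (11.2 ± 11.1 CPM in MI cDC1 and 7.17 ± 0.611 CPM in MI macrophages, adjusted p = 0.363). Of 21 chemoattractant receptors 6 were higher and 12 lower, against 21.0% and 24.5% of all genes. Cxcr3 itself had 296 ± 18.1 CPM in MI cDC1 and 14.5 ± 2.29 CPM in MI macrophages (20.4-fold higher, log2 fold change 4.35 ± 0.36 SE, adjusted p = 5.55e-11). Ccrl2 had 61.0 ± 7.798 CPM in MI cDC1 and 801 ± 120.4 CPM in MI macrophages (13.1-fold lower, log2 fold change -3.71 ± 0.17 SE, adjusted p = 5.11e-18). Leaving out 1 library gave folds of 3959.6 for Ccl12 without cDC1 replicate 2.

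Genes that dendritic cells raise as they mature and leave for lymph nodes were higher in MI cDC1 in 9 of 19 tested cases and lower in 3, against 21.0% and 24.5% of all genes, with a wide spread among the cDC1 libraries. The number higher was 4 in limma-voom and at most 10 in the other settings tried. Ccr7, the receptor that guides cells into lymphatics, had 411, 184, 123 and 81.6 CPM in MI cDC1, against 2.57, 0.612, 0.206 and 2.15 CPM in MI macrophages. This was 135-fold higher in MI cDC1 (log2 fold change 7.07 ± 1.04 SE, adjusted p = 3.44e-06). Fscn1, an actin-bundling protein of mature dendritic cells, had 214, 103, 39.5 and 31.3 CPM in MI cDC1, against 5.60, 8.56, 5.98 and 7.83 CPM in MI macrophages. The gene was 13.8-fold higher (log2 fold change 3.79 ± 0.89 SE, adjusted p = 0.00113). Ccl22, a ligand of CCR4, had 199, 50.8, 67.0 and 25.6 CPM in MI cDC1, against 0.827, 0, 0.825 and 1.14 CPM in MI macrophages. This was 113-fold higher in MI cDC1 (log2 fold change 6.82 ± 1.13 SE, adjusted p = 1.89e-05). cDC1 replicate 1 was the highest library for each, and the groups did not overlap. Ccl17, another CCR4 ligand, had 20.2, 8.28, 3.99 and 5.94 CPM in MI cDC1, against 0 CPM in each of the 4 MI macrophage libraries (at least 145-fold higher, adjusted p = 8.38e-08). Il12b, the p40 subunit of IL-12 and IL-23, had 121, 30.3, 28.1 and 21.1 CPM in MI cDC1, against 0.0919, 0.510, 2.17 and 4.55 CPM in MI macrophages (25.8-fold higher, log2 fold change 4.69 ± 0.98 SE, adjusted p = 3.06e-04), and replicate 1 was again the highest cDC1 library. Traf1 had 94.6 ± 36.2 CPM in MI cDC1 and 15.2 ± 4.76 CPM in MI macrophages (6.16-fold higher, log2 fold change 2.62 ± 0.33 SE, adjusted p = 2.01e-07). Laptm4b had 143 ± 24.4 CPM in MI cDC1 and 23.7 ± 8.10 CPM in MI macrophages (6.02-fold higher, log2 fold change 2.59 ± 0.27 SE, adjusted p = 8.72e-10). In limma-voom Ccr7, Fscn1 and Ccl22 had adjusted p of 0.0972, 0.109 and 0.121, and Ccl17 was at least 92.9-fold higher without cDC1 replicate 1 and at least 95.5-fold higher without macrophage replicate 4. Without cDC1 replicate 1 the calls of Ccr7, Fscn1, Ccl22 and Il12b were kept, with smaller folds. The fold was 63.4 for Ccl22, 87.4 for Ccr7, 8.27 for Fscn1 and 13.7 for Il12b without cDC1 replicate 1 and 54.7 for Il12b without macrophage replicate 4.

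**Figure D3:**
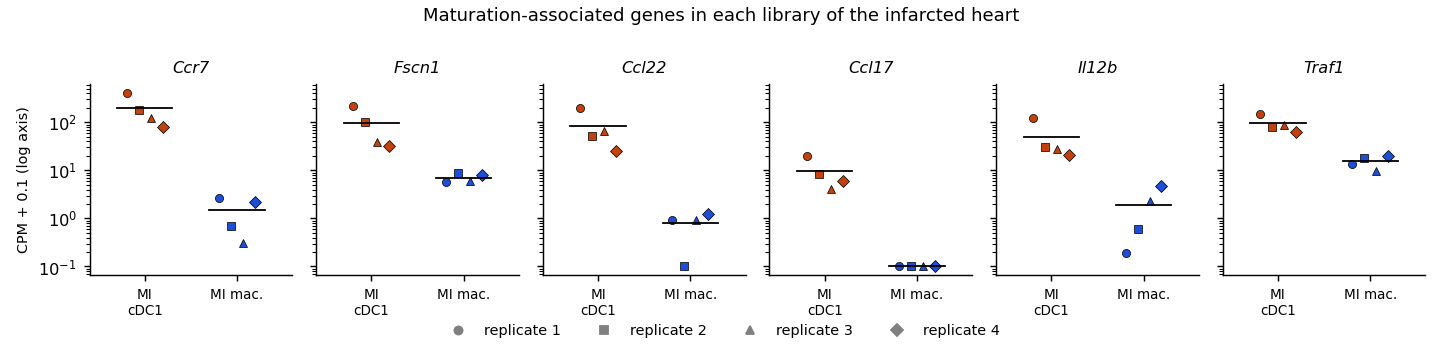
Level of 6 maturation-associated genes in each of the 4 MI cDC1 libraries (left, orange) and 4 MI macrophage libraries (right, blue), in CPM plus 0.1 on a shared log axis. Marker shapes are replicate numbers and lines are means, and replicate 1 (circle) is the highest cDC1 library in every panel.

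Among 14 tested cytokine genes 3 were higher in MI cDC1 and 6 lower, against 21.0% and 24.5% of all genes. Il1b, interleukin-1 beta, was abundant in both, with 1084, 1501, 1613 and 2071 CPM in MI cDC1, against 688, 798, 801 and 1055 CPM in MI macrophages (1.88-fold higher, log2 fold change 0.91 ± 0.19 SE, adjusted p = 2.68e-04), and Il18 had 38.3 ± 4.91 CPM in MI cDC1 and 18.3 ± 4.22 CPM in MI macrophages (adjusted p = 5.28e-04). Tnf had 7.71, 12.1, 10.1 and 6.25 CPM in MI cDC1, against 127, 97.7, 120.4 and 153 CPM in MI macrophages. The gene was 13.7-fold lower (log2 fold change -3.78 ± 0.24 SE, adjusted p = 2.19e-14). Il1rn, the interleukin-1 receptor antagonist, had 0.411, 0.296, 1.30 and 0 CPM in MI cDC1, against 102, 112, 99.3 and 114 CPM in MI macrophages. This was 202-fold lower in MI cDC1 (log2 fold change -7.66 ± 0.51 SE, adjusted p = 7.09e-13). The antagonist and Tnf were thus separated in all libraries, with macrophages high. Il10 was scarce, with 0 to 0.928 CPM in MI cDC1, against 2.78 to 16.3 CPM in MI macrophages (36.3-fold lower, log2 fold change -5.18 ± 0.81 SE, adjusted p = 2.55e-06), and Tgfb1 had 147 ± 10.8 CPM in MI cDC1 and 247 ± 41.5 CPM in MI macrophages (1.68-fold lower, log2 fold change -0.75 ± 0.13 SE, adjusted p = 1.45e-05). Il12a had too few reads to be tested. Of 16 tested costimulatory and inhibitory genes 6 were higher and 5 lower, again against 21.0% and 24.5% of all genes. Cd86 had 449.5, 418, 423 and 479 CPM in MI cDC1, against 139, 150.3, 162 and 138 CPM in MI macrophages (3.005-fold higher, log2 fold change 1.59 ± 0.17 SE, adjusted p = 1.96e-09), with no overlap. Cd80 (6.69 ± 1.17 CPM in MI cDC1 and 7.30 ± 1.78 CPM in MI macrophages, adjusted p = 0.742) and Cd40 (32.0 ± 9.11 CPM in MI cDC1 and 26.3 ± 3.001 CPM in MI macrophages, adjusted p = 0.37) did not pass the test. Slamf7 had 152 ± 23.1 CPM in MI cDC1 and 11.3 ± 5.05 CPM in MI macrophages (adjusted p = 6.78e-11). Cd244 had 37.0 ± 4.41 CPM in MI cDC1 and 2.38 ± 0.827 CPM in MI macrophages (adjusted p = 7.57e-11), while Tnfsf9, the ligand of 4-1BB, had 14.7 ± 2.15 CPM in MI cDC1 and 60.3 ± 16.9 CPM in MI macrophages (adjusted p = 4.51e-09). Vsir, which encodes the inhibitory receptor VISTA and is listed as 4632428N05Rik, had 197 ± 22.0 CPM in MI cDC1 and 648 ± 67.7 CPM in MI macrophages (adjusted p = 1.86e-15). The fold was 139 for Il10 and 431 for Il1rn without cDC1 replicate 3.

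Genes that handle lipid and iron from dead cells were lower in MI cDC1: 15 of 20 lipid genes and 13 of 14 tested heme and iron genes, against 24.5% of all genes. Apoe had 39.9, 30.3, 24.3 and 23.1 CPM in MI cDC1, against 27509, 20987, 23857 and 29534 CPM in MI macrophages. The gene was 866-fold lower (log2 fold change -9.76 ± 0.39 SE, adjusted p = 7.98e-18). Abca1, which exports cholesterol to apolipoproteins, had 0.103, 0, 0.557 and 1.13 CPM in MI cDC1, against 521, 429.6, 523 and 476 CPM in MI macrophages. This was 1066-fold lower in MI cDC1 (log2 fold change -10.06 ± 0.58 SE, adjusted p = 4.19e-14). Trem2, a lipid-sensing receptor, had 0, 0, 0.650 and 0 CPM in MI cDC1, against 355, 327, 331 and 416 CPM in MI macrophages. The gene was 1939-fold lower (log2 fold change -10.92 ± 0.50 SE, adjusted p = 7.01e-17). In all of these the cDC1 libraries were far below every macrophage library. Pltp, phospholipid transfer protein, was 2200.5-fold lower (adjusted p = 2.21e-22), and Abcg1, a second cholesterol exporter, 2.57-fold lower (adjusted p = 7.45e-07). Only Cd36 and the tetraspanin gene Cd9 (425 ± 31.2 CPM in MI cDC1 and 199 ± 7.25 CPM in MI macrophages, adjusted p = 1.43e-09) were higher among the 20. Hmox1, heme oxygenase, had 9.98, 16.2, 14.2 and 6.97 CPM in MI cDC1, against 247, 389, 284 and 256 CPM in MI macrophages. This was 24.8-fold lower in MI cDC1 (log2 fold change -4.63 ± 0.27 SE, adjusted p = 1.56e-14). Fth1, the ferritin heavy chain, had 2067 ± 119 CPM in MI cDC1 and 6433 ± 512 CPM in MI macrophages (3.11-fold lower, log2 fold change -1.64 ± 0.11 SE, adjusted p = 1.62e-14). Slc11a1 had 13.01 ± 3.49 CPM in MI cDC1 and 438 ± 69.4 CPM in MI macrophages (33.6-fold lower, log2 fold change -5.07 ± 0.27 SE, adjusted p = 1.31e-15). Blvrb had 1.44 ± 0.519 CPM in MI cDC1 and 66.3 ± 16.2 CPM in MI macrophages (45.8-fold lower, log2 fold change -5.52 ± 0.27 SE, adjusted p = 1.35e-17). The fold moved to 2035 for Abca1 without cDC1 replicate 4. Without cDC1 replicate 3 no MI cDC1 read of Trem2 was left, so its fitted fold of 30864 there depends on the prior count.

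All 25 genes of wound repair and matrix were lower in MI cDC1, 22 by at least 4-fold, against 24.5% and 11.7% of all genes, with a median log2 fold change of -5.54. Arg1, arginase 1, had 0.720, 0.296, 0.279 and 0.205 CPM in MI cDC1, against 51.3, 307, 83.9 and 65.1 CPM in MI macrophages. The gene was 330.2-fold lower (log2 fold change -8.37 ± 1.35 SE, adjusted p = 1.31e-05). Macrophage replicate 2 was the highest library. Spp1, osteopontin, was also present in MI cDC1, with 158, 146, 152 and 164 CPM in MI cDC1, against 787, 1153, 935 and 695 CPM in MI macrophages. This was 5.77-fold lower in MI cDC1 (log2 fold change -2.53 ± 0.48 SE, adjusted p = 9.65e-05). Vegfa, the endothelial growth factor, had 6.99, 6.21, 7.06 and 11.7 CPM in MI cDC1, against 40.1, 99.2, 51.9 and 45.5 CPM in MI macrophages. The gene was 7.399-fold lower (log2 fold change -2.89 ± 0.46 SE, adjusted p = 8.84e-06). Neither Spp1 nor Vegfa overlapped between groups. Plau, urokinase, was 25.8-fold lower (adjusted p = 1.31e-16), its receptor Plaur 25.5-fold lower (adjusted p = 6.51e-10), Timp2 185-fold lower (adjusted p = 4.92e-21), Thbs1 51.2-fold lower (adjusted p = 8.56e-09) and Hbegf 353-fold lower by the ratio of summed reads (95% interval 63.0 to 13983), adjusted p = 5.91e-10. The 9 fibroblast markers other than Gsn moved the same way (1.30 to 2.88 CPM summed in MI cDC1, 53.7 to 91.4 CPM in MI macrophages), and their part in the matrix genes was not tested. With 1 library left out the fold was 174 for Arg1 without macrophage replicate 2.

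Oxidative phosphorylation genes were higher in MI cDC1 in 21 of 32 cases, against 21.0% of all genes, and none was lower, though the shifts were small, with a median log2 fold change of 0.47 and no gene at 4-fold. Uqcrfs1, the Rieske subunit of complex III, had 196, 234, 269 and 234 CPM in MI cDC1, against 99.9, 109.7, 80.5 and 75.9 CPM in MI macrophages. This was 2.55-fold higher in MI cDC1 (log2 fold change 1.35 ± 0.14 SE, adjusted p = 4.96e-10). Atp5b and Atp5c1 of the ATP synthase were 1.84-fold higher and 2.09-fold higher, and Uqcrc2 2.18-fold higher (adjusted p = 4.86e-07, 3.09e-08 and 1.10e-07). Of 25 glycolytic and hypoxia genes 5 were higher and 9 lower, shares near those of all genes for the higher calls (21.0%) and above them for the lower ones (24.5%). Ldha, lactate dehydrogenase A, had 1619, 2127, 2042 and 2042 CPM in MI cDC1, against 612, 859, 629 and 631 CPM in MI macrophages (2.87-fold higher, log2 fold change 1.52 ± 0.16 SE, adjusted p = 2.56e-09). Pfkp, a phosphofructokinase, had 515 ± 24.2 CPM in MI cDC1 and 61.8 ± 7.95 CPM in MI macrophages (8.33-fold higher, log2 fold change 3.06 ± 0.18 SE, adjusted p = 1.85e-15). Hk2 had 11.4 ± 1.36 CPM in MI cDC1 and 22.4 ± 3.41 CPM in MI macrophages (adjusted p = 1.60e-04). Bnip3 had 35.0 ± 3.49 CPM in MI cDC1 and 71.7 ± 9.70 CPM in MI macrophages (adjusted p = 5.94e-07). P4ha1 had 55.7 ± 8.43 CPM in MI cDC1 and 117 ± 23.9 CPM in MI macrophages (adjusted p = 1.14e-06), and the glucose transporter Slc2a1 did not pass the test (83.5 ± 8.62 CPM in MI cDC1 and 71.7 ± 13.1 CPM in MI macrophages, adjusted p = 0.354). Cell cycle genes were higher in MI cDC1 in 24 of 31 cases and lower in none, with a median log2 fold change of 1.01. Rrm2, a ribonucleotide reductase subunit, had 98.3, 134, 109.5 and 123 CPM in MI cDC1, against 27.1, 19.4, 40.6 and 23.2 CPM in MI macrophages. The gene was 4.21-fold higher (log2 fold change 2.07 ± 0.32 SE, adjusted p = 3.79e-06). Ccnb2, cyclin B2, was 2.83-fold higher (adjusted p = 2.69e-05), Tubb5 1.93-fold higher (adjusted p = 4.07e-05) and Cenpa 2.01-fold higher (adjusted p = 4.50e-05). Top2a had 96.1, 84.5, 94.1 and 98.3 CPM in MI cDC1, against 29.4, 38.4, 60.7 and 39.6 CPM in MI macrophages (2.22-fold higher, log2 fold change 1.15 ± 0.45 SE, adjusted p = 0.037) and passed the threshold without cDC1 replicate 2 or macrophage replicate 3. It did not pass without any of the other 6 libraries (adjusted p of 0.0591 to 0.101) or with no filter on low counts (adjusted p = 0.0583). Mki67, the usual proliferation marker, had 7.92, 3.16, 3.53 and 7.78 CPM in MI cDC1, against 15.2, 12.3, 24.5 and 14.97 CPM in MI macrophages and did not pass the test (log2 fold change -1.58 ± 0.85 SE, adjusted p = 0.135), although it did when the MI libraries alone were fitted (adjusted p = 6.14e-04).

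Interferon-responsive genes were called in both directions. Of 20 interferon gamma genes 7 were higher and 8 lower, against 21.0% and 24.5% of all genes. Of 25 type I interferon genes 3 were higher, a smaller share than over all genes, and 13 lower. Gbp3, a guanylate-binding protein gene, had 2.23 ± 1.46 CPM in MI cDC1 and 38.9 ± 4.75 CPM in MI macrophages (17.5-fold lower, log2 fold change -4.13 ± 0.42 SE, adjusted p = 1.77e-09). Oas1a had 36.1 ± 4.98 CPM in MI cDC1 and 143 ± 17.5 CPM in MI macrophages (3.97-fold lower, log2 fold change -1.99 ± 0.17 SE, adjusted p = 9.52e-12). Oas2 had 0.508 ± 0.418 CPM in MI cDC1 and 29.1 ± 7.86 CPM in MI macrophages (57.1-fold lower, log2 fold change -5.84 ± 0.49 SE, adjusted p = 6.80e-12). Rtp4 had 2.47 ± 1.79 CPM in MI cDC1 and 92.2 ± 15.7 CPM in MI macrophages (37.5-fold lower, log2 fold change -5.23 ± 0.40 SE, adjusted p = 4.80e-12). Ddx58, which encodes RIG-I, had 8.36 ± 3.73 CPM in MI cDC1 and 81.1 ± 5.01 CPM in MI macrophages (9.72-fold lower, log2 fold change -3.28 ± 0.29 SE, adjusted p = 2.53e-11). Isg15 (33.1 ± 7.15 CPM in MI cDC1 and 26.0 ± 6.56 CPM in MI macrophages, adjusted p = 0.276) and Irf7 (391 ± 37.9 CPM in MI cDC1 and 323 ± 44.3 CPM in MI macrophages, adjusted p = 0.228) did not pass the test. Of 22 inflammasome and NF-kB genes 4 were higher and 10 lower, against the same 21.0% and 24.5% of all genes. Nlrp3, the inflammasome sensor, had 9.98, 19.2, 12.3 and 15.6 CPM in MI cDC1, against 100.04, 91.9, 127 and 144 CPM in MI macrophages. This was 8.11-fold lower in MI cDC1 (log2 fold change -3.02 ± 0.23 SE, adjusted p = 1.48e-12). The NF-kB feedback genes Nfkbia (239 ± 39.8 CPM in MI cDC1 and 865 ± 119 CPM in MI macrophages, adjusted p = 1.97e-12) and Nfkbiz (30.99 ± 10.998 CPM in MI cDC1 and 1161 ± 322 CPM in MI macrophages, adjusted p = 3.25e-14) and the prostaglandin enzyme gene Ptgs2 (5.55 ± 2.08 CPM in MI cDC1 and 139 ± 27.6 CPM in MI macrophages, adjusted p = 3.79e-12) were lower. Of 20 integrin and junction genes 9 were higher and 7 lower, against 21.0% and 24.5% of all genes. Itgb7, the partner of Itgae, had 1068, 1131, 1129.9 and 1039 CPM in MI cDC1, against 16.2, 30.1, 7.53 and 23.6 CPM in MI macrophages (56.2-fold higher, log2 fold change 5.81 ± 0.37 SE, adjusted p = 3.82e-13). Itgal, a subunit of LFA-1, had 230.2 ± 28.2 CPM in MI cDC1 and 26.6 ± 6.55 CPM in MI macrophages (8.63-fold higher, log2 fold change 3.11 ± 0.29 SE, adjusted p = 4.99e-10). Itgb2, its partner, had 1205 ± 56.7 CPM in MI cDC1 and 449.6 ± 51.0 CPM in MI macrophages (2.68-fold higher, log2 fold change 1.42 ± 0.14 SE, adjusted p = 3.43e-10). Epcam was at least 255-fold higher (adjusted p = 1.66e-12) and Jaml (listed as Amica1) 8.98-fold higher (adjusted p = 1.53e-19), whereas Itgb5 had 7.68 ± 7.10 CPM in MI cDC1 and 1089.7 ± 114 CPM in MI macrophages (143-fold lower, log2 fold change -7.16 ± 0.61 SE, adjusted p = 2.22e-10). The fold became 261 for Itgb5 without cDC1 replicate 1 and 85.8 for Oas2 without cDC1 replicate 4.

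**Figure D4:**
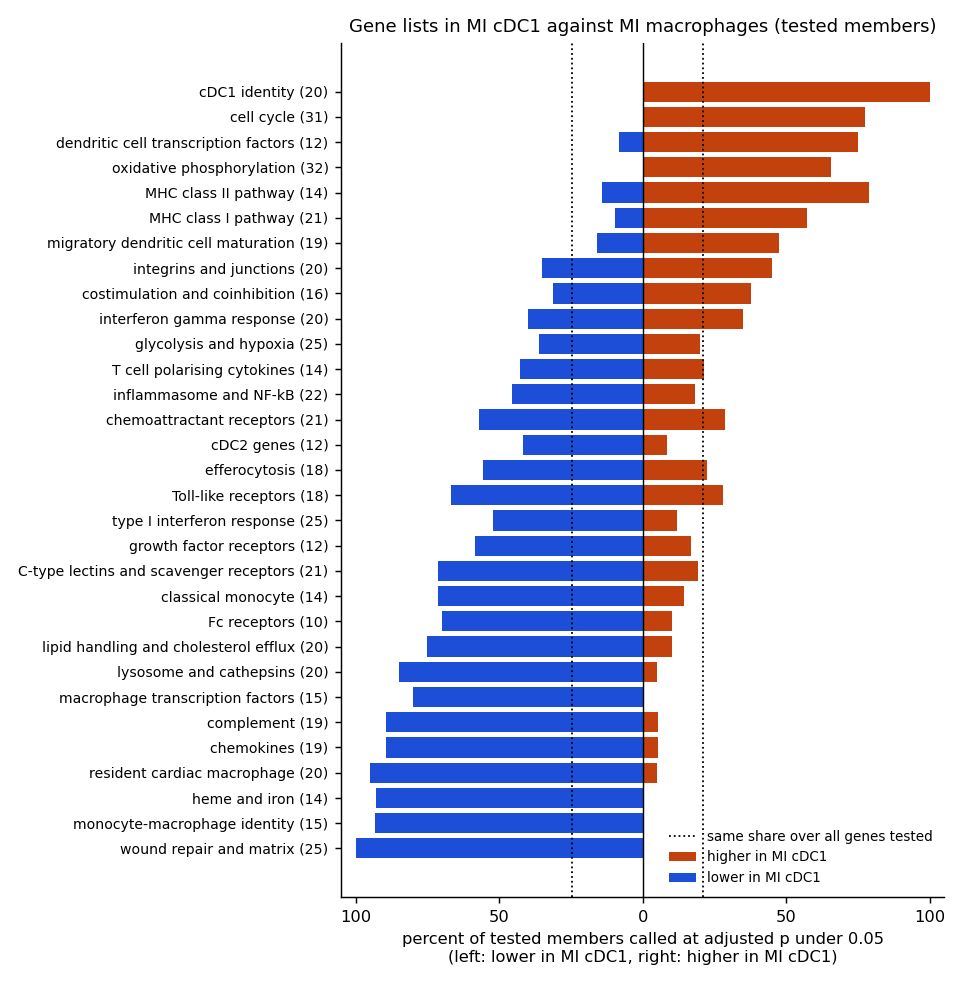
Percent of the tested members of each of 31 gene lists (number tested in brackets) that were higher (right, orange) or lower (left, blue) in MI cDC1 at an adjusted p under 0.05. Dotted lines give the same shares over all genes tested, 21.0% and 24.5%, and the cDC1 identity and the wound repair and matrix lists lie at the extremes.

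The same comparison in steady state hearts used other libraries and gave 2720 higher genes (20.9%) and 2860 lower genes (21.9%) in SS cDC1, with 705 (5.41%) and 1133 (8.69%) at 4-fold or more. Of the 4-fold higher genes 486 were shared, 75.3% of those in MI and 68.9% of those in SS. Of the 4-fold lower genes 906 were shared, 59.2% of those in MI and 80.0% of those in SS. In all, 5 genes were higher in MI cDC1 and lower in SS cDC1, and 39 were lower in MI cDC1 and higher in SS cDC1. Among the 39 were the mural marker Acta2 and Bcam, with means of 97.0 and 29.5 CPM in SS cDC1, as well as Ly6e, Dusp2 and Rap2a. The 5, named after their values were seen, were Ctnnd2, Cxxc5, Lpar1, Nyap1 and Siglech. The MI calls of Cxxc5 and Nyap1 depended on single libraries: Cxxc5 was lost without cDC1 replicate 2 or 3 or macrophage replicate 3 or 4 (adjusted p of 0.0511 to 0.0796), and Nyap1 without cDC1 replicate 1 or 4 or any macrophage library (adjusted p of 0.0511 to 0.101). The fitted log2 fold changes in MI and SS correlated at 0.760 across the 13039 genes, which are not independent replicates. The difference itself, the cDC1 minus macrophage log2 fold change in MI minus that in SS, passed the test in 527 genes (4.04%): it was above 0 in 106 (0.813%) and below 0 in 421 (3.23%). Of the 421, 63 had no read in MI cDC1, so that their fitted size depends on the prior count. In limma-voom 187 were below 0, and without macrophage replicate 4 the counts were 88 above and 374 below 0. Any difference in preparation between all MI and all SS hearts cannot be told apart from the infarct.

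In the 6 genes with the largest positive differences the mean level in MI macrophages was below that in SS macrophages. Cd207 had 97.0 ± 19.3 CPM in MI cDC1 and 15.3 ± 8.28 CPM in MI macrophages, against 366 ± 10.8 CPM in SS cDC1 and 474 ± 112 CPM in SS macrophages (MI minus SS log2 difference 3.03 ± 0.51 SE, adjusted p = 4.67e-04). St3gal5, a ganglioside synthase, had 371 ± 19.9 CPM in MI cDC1 and 5.37 ± 2.67 CPM in MI macrophages, against 366 ± 18.4 CPM in SS cDC1 and 40.3 ± 11.6 CPM in SS macrophages (MI minus SS log2 difference 2.95 ± 0.30 SE, adjusted p = 1.55e-07). Mean Cd207 was lower in both MI populations than in their SS counterparts, while mean St3gal5 was nearly equal in cDC1. The MI against SS levels of each population were not tested here. Vwa1 had 51.0 ± 12.3 CPM in MI cDC1 and 0.375 ± 0.268 CPM in MI macrophages, against 28.7 ± 10.7 CPM in SS cDC1 and 3.95 ± 1.74 CPM in SS macrophages (MI minus SS log2 difference 4.10 ± 0.88 SE, adjusted p = 0.00494). Siglech, a plasmacytoid dendritic cell lectin also found on some macrophages, had 24.1 ± 8.06 CPM in MI cDC1 and 4.86 ± 0.896 CPM in MI macrophages, against 10.9 ± 4.42 CPM in SS cDC1 and 28.7 ± 6.84 CPM in SS macrophages (MI minus SS log2 difference 3.70 ± 0.80 SE, adjusted p = 0.00551). Cd226, an activating receptor, had 61.3 ± 9.21 CPM in MI cDC1 and 0.0972 ± 0.0753 CPM in MI macrophages, against 104 ± 16.1 CPM in SS cDC1 and 1.72 ± 0.745 CPM in SS macrophages (MI minus SS log2 difference 3.37 ± 0.80 SE, adjusted p = 0.0115). Lpar1, a lysophosphatidic acid receptor, had 23.4 ± 6.58 CPM in MI cDC1 and 10.9 ± 2.34 CPM in MI macrophages, against 3.85 ± 1.63 CPM in SS cDC1 and 18.6 ± 6.52 CPM in SS macrophages (MI minus SS log2 difference 3.38 ± 0.45 SE, adjusted p = 8.24e-06). Batf3 (MI minus SS log2 difference 1.23 ± 0.28 SE, adjusted p = 0.00621) and Tlr11 (MI minus SS log2 difference 2.37 ± 0.50 SE, adjusted p = 0.0051) also had a larger difference in MI.

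Negative differences were found in 10 of 25 wound repair and matrix genes, 8 of 21 chemoattractant receptors, 7 of 18 efferocytosis genes and 5 of 15 monocyte and macrophage identity genes, against 3.23% of all genes, and in 0 of 20 cDC1 identity genes. Ccr2 had 2367 ± 199.7 CPM in MI cDC1 and 2125 ± 248 CPM in MI macrophages, against 1584 ± 205 CPM in SS cDC1 and 420.2 ± 63.4 CPM in SS macrophages (MI minus SS log2 difference -1.76 ± 0.19 SE, adjusted p = 1.76e-07). Itgax had 191 ± 14.8 CPM in MI cDC1 and 40.9 ± 15.8 CPM in MI macrophages, against 258 ± 31.3 CPM in SS cDC1 and 7.4999 ± 2.91 CPM in SS macrophages (MI minus SS log2 difference -2.88 ± 0.33 SE, adjusted p = 1.26e-06). The mean of each was higher in MI macrophages than in SS macrophages. Spp1 had 155 ± 7.87 CPM in MI cDC1 and 893 ± 199.8 CPM in MI macrophages, against 236 ± 11.5 CPM in SS cDC1 and 110.1 ± 93.3 CPM in SS macrophages (MI minus SS log2 difference -3.63 ± 0.66 SE, adjusted p = 0.00131). Fn1 had 1.20 ± 1.04 CPM in MI cDC1 and 931 ± 291 CPM in MI macrophages, against 3.50 ± 2.95 CPM in SS cDC1 and 64.6 ± 74.9 CPM in SS macrophages (MI minus SS log2 difference -5.29 ± 1.27 SE, adjusted p = 0.0159). Mertk had 0.103 ± 0.206 CPM in MI cDC1 and 57.3 ± 6.45 CPM in MI macrophages, against 1.25 ± 0.879 CPM in SS cDC1 and 37.6 ± 4.51 CPM in SS macrophages (MI minus SS log2 difference -4.16 ± 1.07 SE, adjusted p = 0.0206). Gas6 had 0 CPM in MI cDC1 and 458 ± 55.9 CPM in MI macrophages, against 8.65 ± 4.10 CPM in SS cDC1 and 716 ± 54.5 CPM in SS macrophages (adjusted p = 1.02e-07). Gab1 had 0 CPM in MI cDC1 and 64.7 ± 8.36 CPM in MI macrophages, against 2.52 ± 2.26 CPM in SS cDC1 and 45.1 ± 16.2 CPM in SS macrophages (adjusted p = 1.03e-05), and Syngr1 0 CPM and 29.3 ± 3.97 CPM, against 0.388 ± 0.286 CPM in SS cDC1 and 6.66 ± 1.69 CPM in SS macrophages (adjusted p = 0.0251).

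The remaining 3 of the 6 largest negative differences belonged to genes with their highest level in SS cDC1. Acta2, smooth muscle actin, had 0.320 ± 0.641 CPM in MI cDC1 and 7.33 ± 9.39 CPM in MI macrophages, against 97.0 ± 59.6 CPM in SS cDC1 and 7.38 ± 6.80 CPM in SS macrophages (MI minus SS log2 difference -8.15 ± 1.44 SE, adjusted p = 9.63e-04). Bcam had 0 CPM in MI cDC1 and 1.89 ± 1.21 CPM in MI macrophages, against 29.5 ± 23.7 CPM in SS cDC1 and 8.35 ± 4.25 CPM in SS macrophages (adjusted p = 3.15e-05), and Ltbp4 0 CPM and 2.81 ± 2.09 CPM, against 38.3 ± 29.3 CPM in SS cDC1 and 21.1 ± 15.7 CPM in SS macrophages (adjusted p = 0.0257). The 10 mural markers summed to 0.819 to 2.96 CPM in MI cDC1 and 11.1 to 40.5 CPM in MI macrophages, against 92.5 to 327 CPM in SS cDC1 and 8.14 to 48.0 CPM in SS macrophages, and 4 of the 10 were at 0 reads in MI cDC1. The 10 endothelial markers summed to 57.0 to 262 CPM in SS cDC1 and 54.6 to 121 CPM in SS macrophages. The mural list holds Acta2, and the part of these cells' markers in these differences was not tested.

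**Figure D5:**
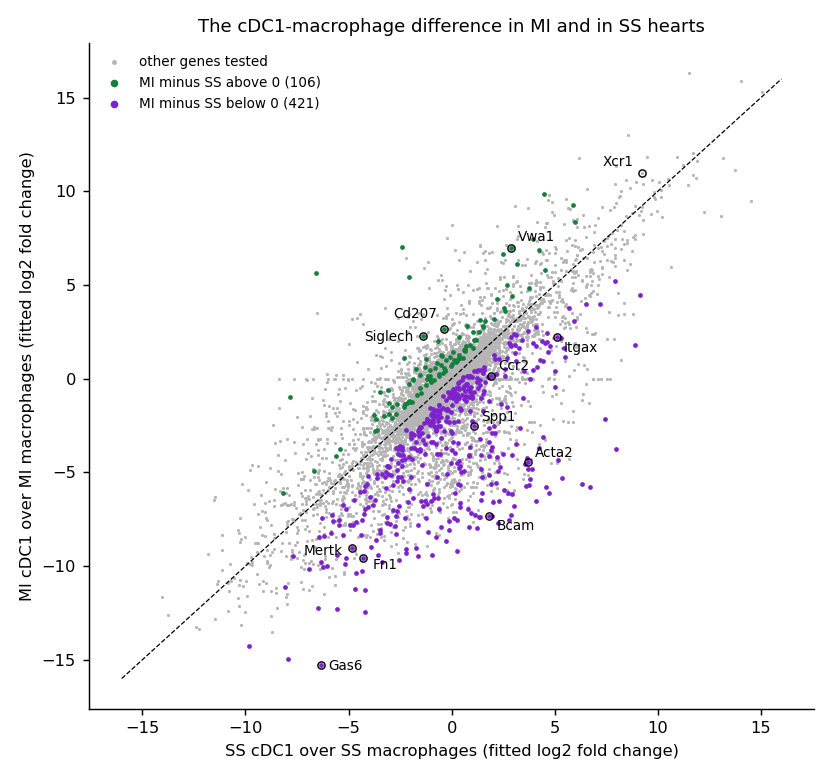
Fitted log2 fold change of cDC1 over macrophages in MI hearts (vertical) and in SS hearts (horizontal) for 13039 genes, 4 libraries per group, with the line of equality dashed. Green marks the 106 genes whose difference was above 0 (MI minus SS) and purple the 421 below 0, among them Gas6, Mertk, Ccr2 and Itgax.

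The other sorted populations of the infarcted heart had median levels between those of cDC1 and macrophages on these genes. For the 645 genes at least 4-fold higher in MI cDC1, the median log2(CPM + 1) relative to MI macrophages was 2.39 in MI cDC1, 1.13 in MI cDC2 and 0.606 in MI moDC. For the 1531 at least 4-fold lower genes it was -2.22 in MI cDC1, -1.01 in MI cDC2 and -0.446 in MI moDC, and over all genes tested -0.036, -0.0096 and 0.0069 in the same order. The end positions are fixed by the choice of genes. That choice also makes a median between them likely for any other population, and the middle positions were not tested. Levels of Csf1r were 20.9 to 40.8 CPM in MI cDC1, 1101 to 1352 CPM in MI cDC2, 2592 to 3216 CPM in MI moDC and 4234 to 5896 CPM in MI macrophages. For Flt3 they were 442 to 504 CPM in MI cDC1, 195 to 217 CPM in MI cDC2, 18.9 to 49.4 CPM in MI moDC and 1.26 to 3.49 CPM in MI macrophages. For Zbtb46 they were 111 to 153 CPM in MI cDC1, 43.9 to 50.4 CPM in MI cDC2, 6.99 to 12.8 CPM in MI moDC and 2.17 to 2.85 CPM in MI macrophages. Flt3 and Zbtb46 thus stepped down and Csf1r stepped up in the same order of populations, with no overlap between neighbours. Irf8 was an exception, with 3450.4 to 4078 CPM in MI cDC1, 149 to 230.0 CPM in MI cDC2, 349.6 to 433 CPM in MI moDC and 397 to 464 CPM in MI macrophages. Ccr7 had 81.6 to 411 CPM in MI cDC1, 412 to 1039.7 CPM in MI cDC2, 106 to 964 CPM in MI moDC and 0.206 to 2.57 CPM in MI macrophages, so that cDC1 were not its highest population.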

How the data were processed

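RNA was measured by SMART-Seq v4 from 4 ng of total RNA per sorted population and sequenced as 75 nt single reads on 2 flow cells, per the labels. The submitters' processing notes name TopHat2 2.1.0 and the mouse build mm10, beside Trimmomatic 0.35, SAMtools 0.1.18 and FastQC 0.11.4. Which program counted the reads, on which gene models and whether by strand was not given in the sources used here, so that overlapping or antisense genes and near-identical copies may share reads. The values used are the raw counts per gene that the authors deposited, not normalized. Rows that name no gene were left out. In the 8 libraries of MI cDC1 and MI macrophages 7.75% to 10.9% of the reads were in no feature and 0.956% to 1.09% were ambiguous. In SS cDC1 and SS macrophages 8.39% to 16.9% were in no feature. Depth was 9148624 to 15671670 reads in genes per library in MI cDC1 and MI macrophages, and 9571370 to 16531349 in SS cDC1 and SS macrophages. No replicate pair agreed within counting noise (lowest chi-square per degree of freedom 10.83).

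Counts were tested with edgeR 4.0.16 (R 4.3.3), using TMM factors, filterByExpr with a minimum count of 10, a robust quasi-likelihood fit with 1 mean for each of 8 groups over all 31 libraries, and Benjamini-Hochberg adjustment over the 13039 genes tested of 24421. Calls are at adjusted p under 0.05, two-sided, with a 4-fold call beside them. Fold changes are cDC1 over macrophages. Against a group without reads the fold is a bound from 3 reads over the group, and with 1 to 3 reads it is the ratio of summed reads with an exact 95% interval. The alternatives were other factors and filters, DESeq2 1.42.0, limma-voom (limma 3.58.1), fewer groups, a replicate block, each library left out and glmTreat. In simulated data (12702 genes) each gene had the same mean in all 8 groups, and a small set was changed in MI cDC1, evenly up and down. Of genes set at a log2 change of -2, 66.7% were called, 54.3% at -1, 44.0% at 1 and 73.5% at 2, with 9 false calls among 124. Far more genes were called in the real comparison (45.4%), more of them lower than higher, so these rates need not hold for it.

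The groups, 31 gene lists and markers were chosen with earlier results of these data known. Of 620 list and marker symbols 618 were found, 4 of them under older symbols. List members Cd70, Il4i1, Apol7c, Il12a, Il23a, Marco and Hpx had too few reads to be tested. Genes were named by a rule: the 12 largest rises and 12 largest falls with separate libraries and a mean of 20 CPM or more in the higher group, the 5 highest levels in each group among 4-fold calls, each list's key members and its 4 called members of smallest adjusted p, and the 6 largest differences between MI and SS in each direction, with 20 CPM or more in 1 group. The ranked parts skip predicted genes, pseudogenes, immunoglobulin and T cell receptor genes, Xist and genes on Y. Anxa1, Cadm1, Ccl12, Ccl5, Cd180, Cd36, Cd9, Csf2ra, Csf2rb, Ctnnd2, Cxcr3, Cxxc5, Dusp2, Epcam, Fcer1a, H2-D1, H2-K1, Havcr2, Il18, Il1b, Irf4, Itgal, Itgb2, Itgb5, Itgb7, Lgals3, Ly6e, Ly75, Myd88, Nyap1, Plac8, Psap, Rap2a, Tlr12, Ucp2 and Vegfa were named outside the rule, after their values were seen. Values of a few genes that the rule or the lists hold are not reported here.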

Additional observations from a re-analysis of the deposited data

Results flagged for a closer look

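Among 442 combinations of a named gene and a group of 4 libraries, those with a highest library under 1 CPM or no spread were not checked. Of the rest, 26 had 1 library farther from the other 3 than Dixon's 95% limit, and chance alone flags about 1 in 20 groups. MI cDC1 replicate 1 and MI macrophage replicate 2 held most of them. In MI cDC1 replicate 1 these were Atp5b at 1296 CPM (others 1562 to 1609.5 CPM), Ccl5 at 27.7 CPM (others 3.99 to 7.0005 CPM), Gm2a at 3664 CPM (others 3513 to 3532 CPM), H2-DMa at 1049 CPM (others 928 to 944 CPM), H2-K1 at 549.9 CPM (others 463 to 470.5 CPM), Il12b at 121 CPM (others 21.1 to 30.3 CPM), Itgb5 at 18.2 CPM (others 2.60 to 5.23 CPM), Ldha at 1619 CPM (others 2042 to 2127 CPM) and P4ha1 at 43.2 CPM (others 58.6 to 61.2 CPM). For MI cDC1 replicate 2 the list held Acta2 at 1.28 CPM (others 0 to 0 CPM). In MI cDC1 replicate 3 the value apart was Mrc1 at 1.21 CPM (others 0 to 0.103 CPM). For MI cDC1 replicate 4 the list held Irf8 at 3450.4 CPM (others 4036 to 4078 CPM) and Vegfa at 11.7 CPM (others 6.21 to 7.06 CPM). In MI macrophage replicate 1 these were Cd36 at 52.6 CPM (others 99.4 to 106 CPM) and Spic at 4.87 CPM (others 9.99 to 11.04 CPM). For MI macrophage replicate 2 the list held Acta2 at 21.4 CPM (others 2.27 to 2.85 CPM), Arg1 at 307 CPM (others 51.3 to 83.9 CPM), Fn1 at 1363 CPM (others 758 to 845 CPM), Ldha at 859 CPM (others 612 to 631 CPM), Mertk at 66.9 CPM (others 52.8 to 55.2 CPM) and S100a4 at 38.9 CPM (others 23.7 to 25.6 CPM). In MI macrophage replicate 3 these were C3ar1 at 1889 CPM (others 1530.4 to 1584 CPM), Clec9a at 1.65 CPM (others 0 to 0.184 CPM) and Tlr11 at 2.48 CPM (others 0.948 to 1.19 CPM). For MI macrophage replicate 4 the list held C1qa at 4719.7 CPM (others 3572 to 3755 CPM) and Cxcl9 at 1.26 CPM (others 6.32 to 7.01 CPM).

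For 74 of the named genes the cDC1 over macrophage difference in infarcted hearts departed from that in steady state hearts in the test of the difference itself (edgeR, adjusted p under 0.05). The values are the log2 difference in MI minus that in SS. It was above 0 for 16 genes, Nyap1 (12.19), Vwa1 (4.10), Siglech (3.70), Lpar1 (3.38), Cd226 (3.37), Cd207 (3.03), St3gal5 (2.95), Tlr11 (2.37), Ctnnd2 (2.28), Itgal (1.754), Cxxc5 (1.58), H2-Ob (1.51), Batf3 (1.23), Cd86 (0.93), Cenpa (0.91) and Myd88 (0.79). It was below 0 for 58 genes, Bcam (-9.14), Gas6 (-8.91), Ltbp4 (-8.77), Gab1 (-8.26), Acta2 (-8.15), Syngr1 (-7.11), C4b (-6.996), Fn1 (-5.29), Hbegf (-5.15), Stab1 (-4.43), Mertk (-4.16), Abca1 (-3.80), Spp1 (-3.63), Ccl5 (-3.52), Cxcl1 (-3.25), Ly6e (-3.23), Cd244 (-3.20), Il1rn (-3.02), Pltp (-3.001), Ctsd (-2.96), Vegfa (-2.88), Itgax (-2.88), Thbs1 (-2.82), Nfkbiz (-2.64), Clec10a (-2.39), Clec4a2 (-2.36), Plaur (-2.29), Tnf (-2.102), Timp2 (-2.09), Havcr2 (-2.07), Axl (-2.04), Slamf7 (-1.95), Adgre1 (-1.85), Dusp2 (-1.84), Tnfsf9 (-1.80), C3ar1 (-1.77), Ccr2 (-1.76), Itgam (-1.74), Lgals3 (-1.71), Anxa1 (-1.67), Plau (-1.63), Ctsl (-1.61), Ptgs2 (-1.54), Cxcl10 (-1.53), Ccl3 (-1.49), Fcgr4 (-1.49), Slc11a1 (-1.44), Ccl9 (-1.44), Tlr2 (-1.41), S100a4 (-1.38), Rap2a (-1.36), Tgfbr1 (-1.24), Nfkbia (-1.24), Nlrp3 (-1.22), Cybb (-1.18), Ccrl2 (-1.02), Fth1 (-0.72) and Gm2a (-0.65). In 7 of them, Bcam, C4b, Gab1, Gas6, Ltbp4, Nyap1 and Syngr1, 1 MI group had no read, so that the fitted size depends on the prior count.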

How the results depend on the processing

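Counts of genes apart between MI cDC1 and MI macrophages stayed within 1.5 times under each of the alternatives run, and called genes were higher in 44.01% to 49.98% of cases over the scalings and tools. When 1 of the 8 libraries was left out, 2518 to 2637 genes were higher and 2898 to 3045 lower, 603 to 640 and 1421 to 1483 by at least 4-fold, and the MI minus SS difference was above 0 in 78 to 113 genes and below 0 in 325 to 399. With limma-voom the last count was 187, and the cause was not tested. The main fit did not pair samples by replicate number. Deviations of same-numbered libraries correlated at 0.0174, 0.0456, -0.0216 and -0.0315, and not every library correlated best with its own number. These values cannot settle whether same-numbered samples share a heart, since 2 cell types of 1 heart need not deviate together. With the replicate block 2869 genes were higher and 3200 lower, 633 and 1471 by at least 4-fold, and 133 and 483 differed between MI and SS. With the block in the 2 groups alone 2627 were higher and 2848 lower.

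Of 207 called genes named, 196 kept direction and call in all 18 settings. Among the rest with values not given above, limma-voom gave Acta2 an adjusted p of 0.142, Ltbp4 0.0891, Ly6c2 0.0977 and Nyap1 0.199, DESeq2 gave Nyap1 0.0667 and Fcer1a 0.112, and the block gave Nyap1 0.0813 and Fcer1a 0.0561. Cxxc5 had 0.0588 in the 2 groups alone and 0.0617 with the block there, and Top2a 0.0583 without a filter. Genes that had not passed the test and changed sign were Csf2ra, at a log2 fold change of 0.044 with upper-quartile factors and -0.11 to 0.062 with 1 library left out, and, with 1 library left out, Ccl5 (-0.33 to 0.92), Cd80 (-0.26 to 0.019) and H2-K1 (-0.14 to 0.024). Low counts limit genes with a few reads in a group: their folds rest on single libraries, as the values beside them show.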

Other observations

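Several genes of leukocytes, chosen after their values were seen, pointed one way in infarcted hearts and the other way in steady state hearts. Ly6e, a GPI-anchored protein that responds to interferon, had 98.8 ± 30.4 CPM in MI cDC1 and 467 ± 109 CPM in MI macrophages, against 615 ± 115 CPM in SS cDC1 and 309 ± 36.7 CPM in SS macrophages. Dusp2, a phosphatase that restrains MAP kinases, had 125 ± 25.9 CPM in MI cDC1 and 246 ± 6.62 CPM in MI macrophages, against 264 ± 43.1 CPM in SS cDC1 and 146 ± 38.8 CPM in SS macrophages. Both differences passed the test in each state in edgeR's quasi-likelihood fit, with adjusted p of 6.94e-06 in MI and 0.0195 in SS for Ly6e, and 1.64e-06 in MI and 1.48e-05 in SS for Dusp2. The small GTPase gene Rap2a had 53.3 ± 6.29 CPM in MI cDC1 and 109 ± 5.28 CPM in MI macrophages, against 96.5 ± 11.7 CPM in SS cDC1 and 76.8 ± 15.2 CPM in SS macrophages, with adjusted p of 7.19e-08 in MI and 0.0409 in SS in the same edgeR fit. In all 3 genes the 4 MI cDC1 libraries lay below the 4 MI macrophage libraries. In SS the groups did not overlap for Ly6e and Dusp2, but for Rap2a they did, with 86.0 to 108 CPM in SS cDC1 and 59.9 to 95.4 CPM in SS macrophages.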
